A study of Mus musculus with 58 samples.

Results

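Arntl, Clock, Npas2 and Arntl2 encode the transcriptional activators of the circadian clock, Nr1d1 and Nr1d2 encode the REV-ERB receptors, and Rora and Rorb encode ROR receptors. These 8 genes were chosen by name among the 52459 gene symbols that were counted, and all 8 were among the 19120 genes that counted as expressed, with a median above 4 normalized counts over all libraries. RNA was sequenced from individual retinas of male mice at 4 months of age that had been kept from birth in cycles of 12 h of light and 12 h of dark, and retinas were collected at 6 Zeitgeber times (ZT, hours after lights on). Control retinas came from the littermates labelled C57/BL/6, which lack the mutation, with 5, 6, 5, 5, 5 and 4 libraries at ZT1, ZT5, ZT9, ZT13, ZT17 and ZT21. Diabetic retinas came from heterozygous mice labelled C57BL/6-Ins2Akita/J, with 5, 5, 5, 4, 4 and 5 libraries at the same times. The mutation lies in an insulin gene that is used in pancreatic beta cells, where misfolded insulin leads to hyperglycemia, so the retina itself carries no engineered change of these 8 genes. All mice were perfused with cold phosphate buffered saline, and the night samples were taken under dim red light.

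In the clock, BMAL1, the product of Arntl, pairs with CLOCK or its relative NPAS2, and the pair binds E-box sequences and switches on the period, cryptochrome and REV-ERB genes. REV-ERB receptors repress, and ROR receptors activate, genes that hold a ROR response element (RORE), of which Arntl is the best known, and this loop ties the activators to the receptors. In the retina, where most cell types hold a clock, RORB is also known as a factor needed for rod photoreceptor, horizontal and amacrine cell development, and RORA has been linked to cone opsin expression.

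The letters that this receptor loop reads can be seen around the start of Arntl. The RefSeq promoter windows (250 bases before to 50 after each annotated start, GRCm38.p6) held an entry for all 8 genes. They were searched on both strands for the E-box CACGTG, the E-box-like CACGTT, the receptor core site AGGTCA, the ROREs TAGGTCA and AGTAGGTCA, and the D-box TTATGNAA, and each shorter receptor motif lies within the longer ones. The first line below is the stretch of Arntl with its RORE on the plus strand (chr7:113207529-113207558), at bases 29 to 37 after a start. The others are the 250 bases before the starts of the receptor genes, shown because Rorb and Rora are the genes that the test of rhythm called and Nr1d1 and Nr1d2 are the usual E-box targets, each written 5′ to 3′ on its own strand with motif matches in capitals.
Arntl, plus strand, RORE in capitals: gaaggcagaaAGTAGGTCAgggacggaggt
Nr1d1, minus strand, chr11:98775378-98775627, E-box-like match in capitals: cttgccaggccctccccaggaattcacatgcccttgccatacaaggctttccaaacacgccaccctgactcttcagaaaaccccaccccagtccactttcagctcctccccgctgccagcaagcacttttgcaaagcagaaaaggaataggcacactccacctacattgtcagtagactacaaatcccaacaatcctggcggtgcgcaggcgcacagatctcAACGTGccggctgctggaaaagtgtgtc
Nr1d2, minus strand, chr14:18239107-18239356, core site in capitals: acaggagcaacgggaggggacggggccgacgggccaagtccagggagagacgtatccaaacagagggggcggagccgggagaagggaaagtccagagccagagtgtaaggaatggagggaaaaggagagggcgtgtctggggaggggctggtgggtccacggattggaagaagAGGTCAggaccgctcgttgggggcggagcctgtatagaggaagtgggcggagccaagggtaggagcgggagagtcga
Rora, plus strand, chr9:68653536-68653785, no match: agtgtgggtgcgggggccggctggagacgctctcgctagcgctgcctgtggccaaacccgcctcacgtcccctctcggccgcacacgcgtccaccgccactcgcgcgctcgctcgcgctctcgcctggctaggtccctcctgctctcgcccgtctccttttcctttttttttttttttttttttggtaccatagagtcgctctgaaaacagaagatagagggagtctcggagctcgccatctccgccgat
Rorb, minus strand, upstream start, chr19:19111197-19111446, no match: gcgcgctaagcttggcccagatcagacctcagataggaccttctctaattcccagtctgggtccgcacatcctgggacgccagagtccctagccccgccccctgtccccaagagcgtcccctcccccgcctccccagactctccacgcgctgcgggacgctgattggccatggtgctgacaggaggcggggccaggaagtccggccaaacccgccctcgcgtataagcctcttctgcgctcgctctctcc
Rorb, minus strand, internal start, chr19:19001118-19001367, E-box-like match in capitals: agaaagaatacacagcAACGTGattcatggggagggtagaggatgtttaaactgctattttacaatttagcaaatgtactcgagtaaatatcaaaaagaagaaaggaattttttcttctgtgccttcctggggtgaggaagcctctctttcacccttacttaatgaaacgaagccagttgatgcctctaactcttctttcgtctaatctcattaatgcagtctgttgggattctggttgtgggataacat

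The RORE of Arntl is uncommon among promoters, since AGTAGGTCA was found in 63 of the 32851 windows (0.19%) and TAGGTCA in 2.61%. The core site AGGTCA of Nr1d2, 77 to 72 bases before its start, is found in 16.26% of windows, and another lies before one of the starts of Clock. CACGTT, which was found before the start of Nr1d1 and before the internal start of Rorb, in both as AACGTG on the strand of the gene, is found in 4.68% of windows. No window of the 8 genes held CACGTG, found in 7.15% of all windows, or TTATGNAA, found in 3.38%. A match is a description of the letters only.

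Between 7773117 and 22147398 reads were counted on genes per library, with a median of 15406440, and each of the 113 pairs of replicates differed by more than sampling noise. Markers matched the labelled tissue, since the summed rod markers reached 29605 to 47796 CPM (reads scaled to a common library total) and blood markers at most 13.5 CPM. Lens transcripts reached 1750 to 2800 CPM in 3 libraries, all of control retinas (ZT1 replicate 6, ZT17 replicate 5 and ZT21 replicate 2). In 4 libraries GC-rich genes had more reads than elsewhere, by 0.68 to 0.91 on the log2 scale between a gene of 60% and a gene of 40% GC, against −0.46 to 0.42 in the others. These were replicates 1 and 3 of control ZT17, replicate 4 of control ZT9 and replicate 3 of diabetic ZT17. Among the 8 genes, Nr1d1 is the richest in GC (56.8%) and Clock, Rora, Rorb and Nr1d2 the poorest (40.9% to 41.8%), and in each of these 4 libraries the latter were lowest or next to lowest of their group and Nr1d1 highest or next to highest.

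Per length, the receptors were the most abundant of the 8 genes. As means over libraries of RPKM, reads scaled to exon length and library size, Nr1d1 had levels of 81.0 ± 14.5 (SD, n = 30) in control and 77.2 ± 11.5 (n = 28) in diabetic retinas, and Rorb had 73.7 ± 13.9 and 69.1 ± 15.7. The levels of Nr1d2 (38.0 ± 5.11 and 38.2 ± 4.50) and of Rora (35.6 ± 3.67 and 35.8 ± 3.29) followed. Within each of these pairs of neighbours the levels differed by less than the spread over libraries. The gap between Arntl and Clock, the main activators, was larger than their SD, since Arntl had 16.3 ± 1.12 RPKM in control and 17.3 ± 1.55 in diabetic retinas, whereas its partner Clock had 14.2 ± 1.34 and 14.2 ± 1.07. The relatives of Arntl and Clock were far lower, with 1.19 ± 0.180 and 1.19 ± 0.226 RPKM for Arntl2, which can take the place of BMAL1 in the pair, and 0.807 ± 0.153 and 0.854 ± 0.170 for Npas2. In control retinas the RPKM of Arntl was 13.8 times that of Arntl2 and the RPKM of Clock 17.8 times that of Npas2, as geometric means over libraries, and these ratios were 14.7 and 16.9 in diabetic retinas. By mean RPKM over all libraries, Nr1d1 and Rorb ranked at percentiles 98.7 and 98.5 of the expressed genes and Arntl and Clock at 86.3 and 83.3, whereas Arntl2 and Npas2 ranked at 26.8 and 21.3.

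**Figure D1:**
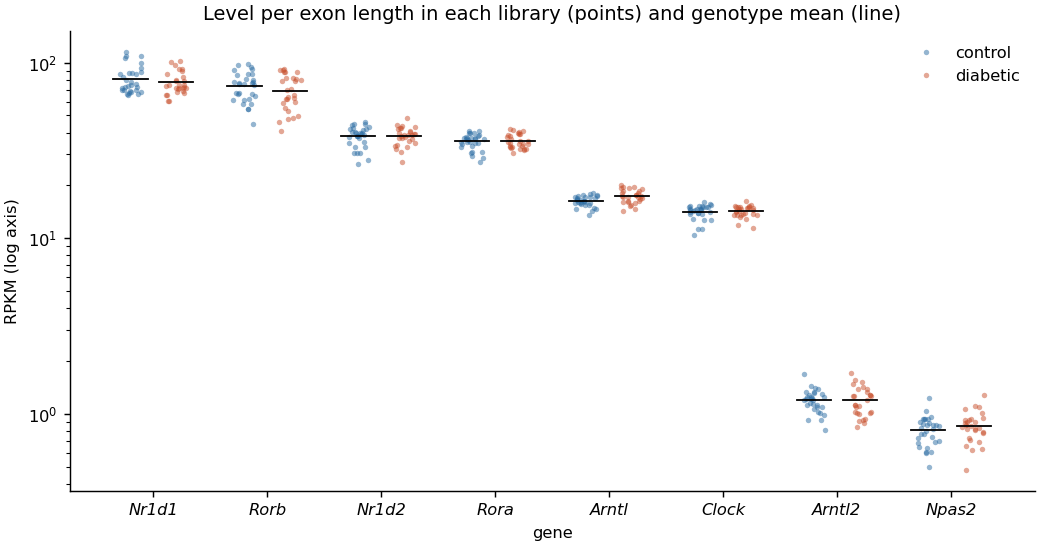
Levels of the 8 genes in RPKM on a log axis, with 1 point per library (30 control, 28 diabetic) and a line at the mean of each genotype. The means of Nr1d1 and Rorb lie between 69.1 and 81.0 RPKM, and those of Arntl2 and Npas2 between 0.807 and 1.19 RPKM.

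Rorb changed between day and night in both genotypes, and in diabetic retinas Rora also passed the test of rhythm. A cosine of 24 h, fitted to all libraries with edgeR's quasi-likelihood test and adjusted by Benjamini-Hochberg over all 19120 genes, called Rorb in control retinas (adjusted p = 1.27e-07), so 1 of the 8 genes where 12.2% of all genes were called. In diabetic retinas it called Rorb (adjusted p = 2.98e-11) and Rora (adjusted p = 0.0446), 2 of the 8 genes beside 14.3% of all genes. The adjusted p of the other genes was 0.162 for Arntl, 0.275 for Npas2, 0.319 for Nr1d2 and 0.478 to 0.854 for the rest in control retinas. In diabetic retinas it was 0.0608 for Npas2, 0.159 for Arntl, 0.166 for Nr1d2 and 0.746 to 0.991 for Clock, Arntl2 and Nr1d1. The rank test that the study used, empirical JTK_CYCLE, was re-implemented with shuffled series, an unadjusted permutation p under 0.05 and the fold threshold of the study, which the highest over the lowest library exceeded in all 8 genes. The permutation test passed Arntl (p = 0.0187), Npas2 (p = 0.0494) and Rorb (p = 2e-06) in control retinas, where 21.8% of all genes passed. In diabetic retinas this permutation test passed Npas2 (p = 0.0307), Rora (p = 0.000142) and Rorb (p = 2e-06), where 23.9% of all genes passed. Any difference among the 6 time points, tested in a fit of 12 groups, was called for Rorb alone, with an adjusted p of 3.17e-06 in control and 2.99e-09 in diabetic retinas (edgeR), beside 9.06% and 10.2% of all genes.

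Rorb (chromosome 19, 18930605 to 19111196, minus strand, GRCm38) was lowest in the day and highest at night. In control retinas its normalized counts (counts divided by DESeq2 size factors) at ZT1 were 12723, 12071, 12373, 9861.8 and 8737. At ZT5 they lay between 8733 and 10754 with a median of 10231 (n = 6), and at ZT9 they were 10199, 10644, 9767, 7191 and 9326. The spread at ZT1 was wide, with replicates 4 and 6 as low as the ZT5 libraries and the other 3 at the level of ZT13. After lights off, at ZT13, the values were 13029, 12341, 13827, 11971 and 12253. At ZT17 they were 12359, 15745, 12219, 15169 and 15549, and at ZT21 they were 14816, 14608, 13744 and 13622. All 14 night libraries lay above all 11 libraries of ZT5 and ZT9, a split that leaves out ZT1, which overlapped the night libraries. The share of all genes with such a split was not computed. The low pair at ZT17 was replicates 1 and 3, which carry the steep GC trend.

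In diabetic retinas Rorb was also low by day and high at night, with its lowest group at ZT5. The counts were 9928, 9892, 10458, 9479.8 and 10098 at ZT1, and 7335, 8813, 8480.3, 6568 and 7745 at ZT5. They were 11121, 9523, 10121, 7687 and 7968.5 at ZT9, so this group reached from the ZT5 level to above ZT1. At ZT13 they were 13040, 14102, 13068 and 11355, and at ZT17 they were 14565, 12923, 14599 and 14254. At ZT21 the counts were 14618, 14184, 12935, 12610 and 12602. All 13 night libraries lay above all 15 libraries of ZT1, ZT5 and ZT9, a split that includes ZT1, unlike that of the control libraries.

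As fitted log2 differences between opposite points, Rorb was higher at ZT17 than at ZT5 by 0.50 ± 0.09 (SE) in control and by 0.85 ± 0.10 in diabetic retinas, with adjusted p of 0.000127 and 3.82e-08 (edgeR). Over all genes, 7.42% in control and 3.63% in diabetic retinas were called higher at ZT17. It was higher at ZT21 than at ZT9 by 0.59 ± 0.10 and 0.52 ± 0.10, with adjusted p of 0.000207 and 0.000332 (edgeR), where 1.2% and 2.2% of genes were called higher. From ZT1 to ZT13 the difference was 0.37 ± 0.10 in diabetic retinas (adjusted p = 0.0468, edgeR, 0.894% of genes called higher) and 0.19 ± 0.10 in control retinas (adjusted p = 0.570, edgeR, 0.476% of genes called higher). The diabetic difference from ZT1 to ZT13 was not firm, since it passed in 34 of 58 fits without 1 library, the highest adjusted p being 0.162 (edgeR) without ZT13 replicate 3, and had an adjusted p of 0.0555 (edgeR) without the filter on low counts. These 5 calls were the only ones among the 48 tests of the 8 genes between opposite points. In either direction, 15.1% and 7.36% of all genes were called between ZT17 and ZT5 in control and diabetic retinas, 2.33% and 5.08% between ZT21 and ZT9, and 0.847% and 1.4% between ZT13 and ZT1. The cosine fitted by least squares to log2 normalized counts had an amplitude (from the fitted mean to the peak) of 0.32 ± 0.04 (SE) in control and 0.44 ± 0.04 in diabetic retinas, a peak to trough fold of 1.55 and 1.85. The acrophase, the time of the fitted peak, was ZT18.4 ± 0.526 h in control and ZT17.5 ± 0.327 h in diabetic retinas.

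**Figure D2:**
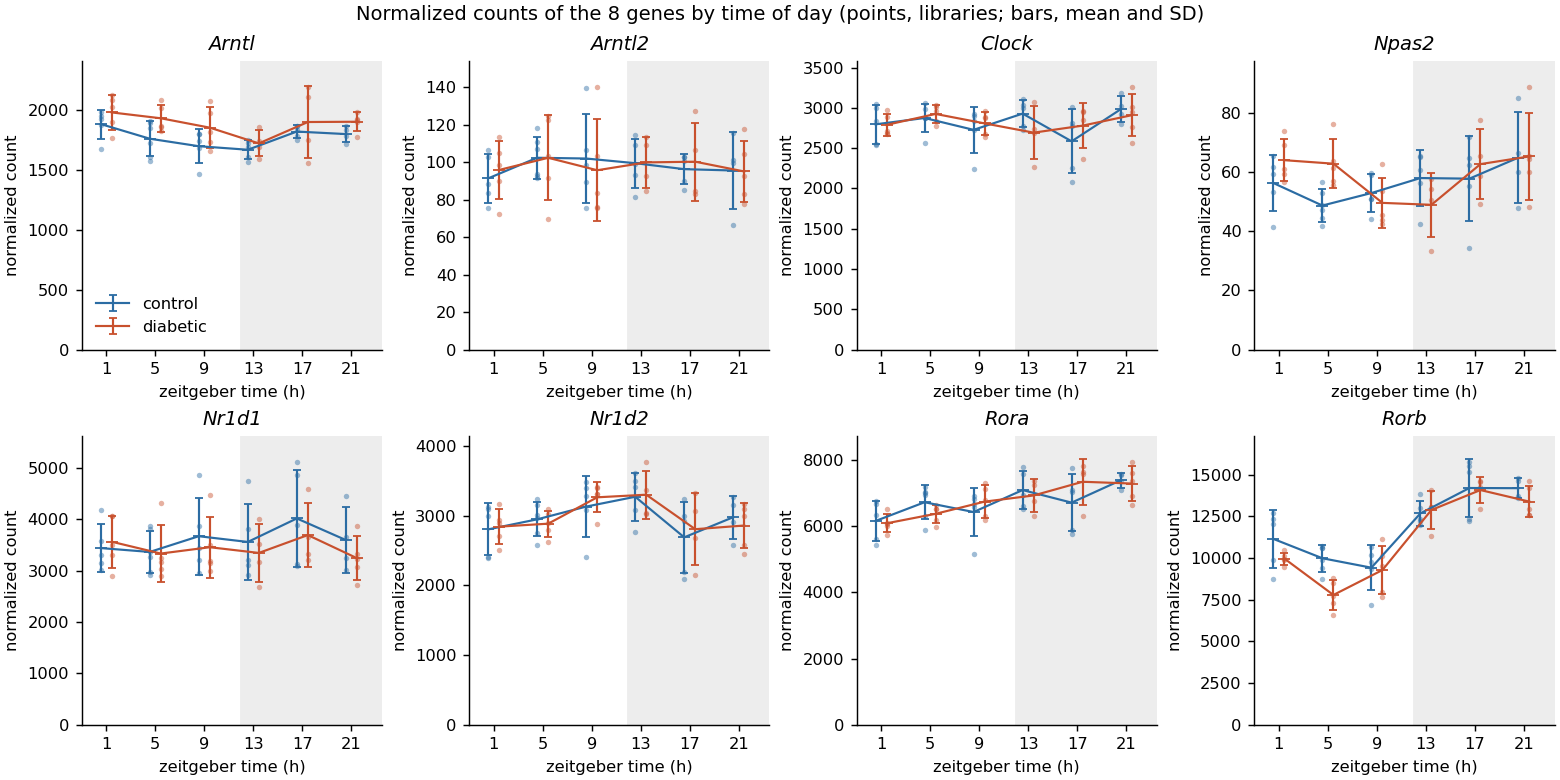
Normalized counts of each of the 8 genes by Zeitgeber time, with 1 point per library, bars for the mean and SD of each group, and the dark period in grey. Rorb is lowest at ZT5 to ZT9 and highest at ZT17 to ZT21 in both genotypes, and most other genes stay within the spread of their libraries.

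Rora (chromosome 9, 68653786 to 69388246, plus strand) had a smaller range, and without a correction for GC content it passed the test of rhythm in diabetic retinas only. Control counts at ZT1 were 6661, 6337, 6749.8, 5612 and 5434, and those at ZT21 were 7545.9, 7564, 7357.5 and 7083.5, so these groups, with the lowest and highest means, did not overlap. The other control means were 6725 ± 515 (SD, n = 6) at ZT5, 6429 ± 728 (n = 5) at ZT9, 7093 ± 573 (n = 5) at ZT13 and 6713 ± 862 (n = 5) at ZT17, where replicates 1 and 3 (5754 and 5892) carry the steep GC trend. The log2 difference of ZT17 from ZT5 was −0.01 ± 0.07 (SE) in control and 0.20 ± 0.08 in diabetic retinas, and neither passed (adjusted p of 0.936 and 0.136, edgeR). With offsets for GC content and length both passed, by 0.17 and 0.27 (adjusted p of 0.0183 and 0.000819, edgeR), where 15.4% and 11.1% of all genes were called. In corrected counts the control means were 6192 ± 372 (n = 5), 6485 ± 230 (n = 6) and 6362 ± 284 (n = 5) at ZT1, ZT5 and ZT9, below the 6836 ± 598 (n = 5), 7344 ± 482 (n = 5) and 7334 ± 279 (n = 4) at ZT13, ZT17 and ZT21. In diabetic retinas the counts were 6104, 6512, 6059.9, 5744 and 6021 at ZT1, and 7589, 6315, 7645 and 7826.5 at ZT17, where replicate 3 with its steep GC trend overlapped the ZT1 range. At ZT21 they were 7929, 7366, 6634.5, 6924 and 7597.5, all above ZT1. The amplitude was 0.06 ± 0.04 (SE) on the log2 scale in control and 0.12 ± 0.03 in diabetic retinas, with the diabetic peak at ZT16.2 ± 0.883 h. After correction for GC content and length, which also brought a call in control retinas (adjusted p = 0.00317, edgeR), the amplitude was 0.11 ± 0.02 (SE) in control and 0.15 ± 0.03 in diabetic retinas. The difference between the genotypes' rhythms of Rora was tested and did not pass (adjusted p = 1.00, unadjusted p = 0.437, edgeR), so a call in diabetic retinas alone is not a difference between genotypes. The call was not firm: it was lost in 17 of 58 fits that each left out 1 library, each of them a diabetic one and 5 of them those of ZT1 (adjusted p of 0.0200 to 0.0967 over the 58 fits, edgeR, the highest without ZT17 replicate 5).

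The ratio of the pair of ROR receptors was lower at midday than at night. In control retinas the RPKM of Rorb was 1.75 ± 0.05 (SD, n = 6) times that of Rora at ZT5 and 2.50 ± 0.08 (n = 5) times at ZT17. In diabetic retinas this ratio was 1.44 ± 0.15 (n = 5) at ZT5 and 2.27 ± 0.11 (n = 4) at ZT17. The lowest control library at ZT5 had a ratio of 1.66 and the highest diabetic one 1.56, so at that time the genotypes did not overlap. The ratios were computed after the levels had been seen and were not tested.

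**Figure D3:**
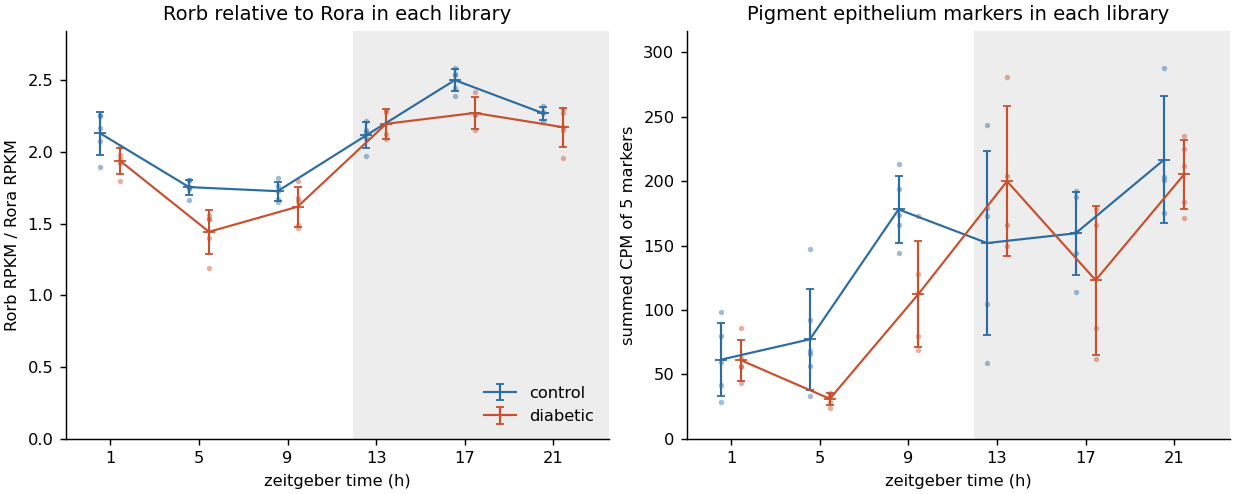
The ratio of the RPKM of Rorb to that of Rora by Zeitgeber time, and the summed CPM of 5 pigment epithelium markers by Zeitgeber time, with 1 point per library, bars for the mean and SD of each group of control and diabetic retinas, and the dark period in grey. The diabetic group at ZT5 has the lowest mean in both plots, 1.44 for the ratio and 31.0 CPM for the markers.

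The level of pigment epithelium markers varied between retinas and with time. The summed level of 5 of its markers (Rpe65, Ttr, Lrat, Best1 and Rgr, all expressed) had group means of 61.5, 77.2, 178, 152, 160 and 217 CPM from ZT1 to ZT21 in control retinas. The diabetic means were 60.8, 31.0, 112, 199.99, 123 and 205 CPM. At ZT5 the control libraries ranged from 33.5 to 147 CPM and the diabetic ones from 24.2 to 35.5 CPM. With the log2 of this sum as a covariate in the fit, an alternative added after the data were seen, the rhythm of Rorb was called in both genotypes (adjusted p of 1.95e-06 in control and 3.03e-07 in diabetic retinas, edgeR). Its fitted amplitude went from 0.31 to 0.29 in control and from 0.44 to 0.39 in diabetic retinas. The call of Rora in diabetic retinas was lost with the covariate (adjusted p = 0.642, edgeR). In bulk retina, fewer cells of a type and less RNA per cell cannot be told apart. The summed bipolar cell markers also had their highest group means at ZT17, of 1532 ± 65.4 CPM (SD, n = 5) in control and 1416 ± 41.6 CPM (n = 4) in diabetic retinas, against 1278 ± 94.7 and 1264 ± 58.8 CPM (n = 5 each) at ZT9. So had the summed Muller glia markers, with 3263 ± 141 CPM (SD, n = 5) in control and 3233 ± 262 CPM (n = 4) in diabetic retinas. At ZT9 the Muller glia markers had 2998 ± 235 and 2982 ± 207 CPM (n = 5 each). The summed cone markers went the other way, with 553 ± 49.3 CPM (SD, n = 5) in control and 565 ± 31.8 CPM (n = 5) in diabetic retinas at ZT9, and 423 ± 41.3 CPM (n = 5) and 415 ± 41.4 CPM (n = 4) at ZT17. The part of any of these cell types in the result was not tested.

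Among the REV-ERB receptors, Nr1d2 (chromosome 14, 18204054 to 18239127, minus strand) had its highest means at ZT13 and its lowest at ZT17 in both genotypes. In control retinas the counts were 3409, 3606, 3496, 2764 and 3084 at ZT13, and 2197, 3241, 2091, 2925 and 2994 at ZT17. In diabetic retinas they were 3369, 3765, 3027 and 3045 at ZT13, and 3331, 2147, 3067 and 2681 at ZT17. The low values at ZT17 include the 3 libraries of that time with the steep GC trend, and the groups overlapped. The amplitude of the cosine was 0.09 ± 0.05 (SE) in control and 0.12 ± 0.04 in diabetic retinas on the log2 scale, which did not pass the test. After correction for GC content and length the lowest mean was at ZT1 in both genotypes, 2804 and 2782 against 2923 and 2948 at ZT17, and the rhythm was called in both (adjusted p of 0.0253 in control and 0.000101 in diabetic retinas, edgeR).

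Nr1d1 (chromosome 11, 98767932 to 98775333, minus strand) had the widest spread of the well-counted genes, with a pooled SD within groups of 0.24 on the log2 scale. Its group means ran from 3367 ± 405 (SD, n = 6) at ZT5 to 4020 ± 946 (n = 5) at ZT17 in control retinas. In diabetic retinas they ran from 3247 ± 423 (n = 5) at ZT21 to 3696 ± 627 (n = 4) at ZT17. The highest library of all, 5112 at control ZT17, and the lowest, 2681 at diabetic ZT13, lay in groups whose ranges overlapped with the others, and the amplitude was 0.08 ± 0.06 (SE) in control and 0.01 ± 0.06 in diabetic retinas on the log2 scale. Replicates 1 and 3 of control ZT17 (5112 and 4865) carry the steep GC trend. After correction for GC content and length the mean at control ZT17 was 3790 ± 556 (SD, n = 5). Without the 4 libraries with the steepest trend the control amplitude in the edgeR fit went from 0.09 to 0.03. Nr1d1 shares 263 exonic bases with Thra on the other strand, and the strand setting of the counting is not given in the sources used here, so reads in this stretch cannot be told apart. The mean raw count of Thra was 3261.

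Arntl (chromosome 7, 113207465 to 113314126, plus strand) had coefficients of variation within groups of 2.94% to 15.7%. Its highest and lowest group means were at ZT1 and ZT13 in both genotypes. In control retinas the counts were 1678, 1879, 1923, 1984 and 1952 at ZT1, and 1566.5, 1722, 1692.5, 1609 and 1754 at ZT13, and 4 of the 5 libraries of ZT1 lay above all of ZT13. In diabetic retinas they were 1763, 2084, 2028, 1899 and 2127 at ZT1, and 1595, 1745, 1856 and 1691 at ZT13. The log2 difference of ZT13 from ZT1 was −0.17 ± 0.07 (SE) in control and −0.20 ± 0.07 in diabetic retinas, and did not pass (adjusted p of 0.340 and 0.191, edgeR). With the replicate block the diabetic difference passed (−0.21, adjusted p = 0.0396, edgeR, 1.93% of all genes called), and the control one did not (adjusted p = 0.123, edgeR). The block also called Arntl rhythmic in control (adjusted p = 0.0216, edgeR) and diabetic retinas (adjusted p = 0.0327, edgeR), where 15.9% and 16.0% of all genes were called. The cosine amplitude was 0.08 ± 0.02 (SE) in control and 0.08 ± 0.03 in diabetic retinas, with peaks at ZT22.8 ± 1.13 h and ZT1.04 ± 1.57 h.

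Clock (chromosome 5, 76209868 to 76304792, minus strand), which encodes the partner of BMAL1, was close to flat, with group means of 2585 to 2982 in control and 2692.5 to 2924.5 in diabetic retinas. Its amplitude was 0.03 ± 0.04 (SE) and 0.04 ± 0.03 on the log2 scale, so a peak to trough fold of 1.04 and 1.06. The lowest control mean of Clock was at ZT17, where replicates 1 and 3 carry the steep GC trend. After correction for GC content and length that mean was 2811 ± 81.8 (SD, n = 5). Npas2 (chromosome 1, 39193731 to 39363236, plus strand) had between 26 and 109 raw reads per library, for which counting error alone is about 12.9%. In control retinas its normalized counts were 56.8, 41.8, 47.3, 44.6, 52.9 and 48.9 at ZT5, the lowest mean, and 60.1, 47.95, 66.6 and 85.0 at ZT21, the highest. In diabetic retinas they were 54.4, 33.2, 57.7 and 50.5 at ZT13, the lowest mean, and 59.9, 48.2, 65.4, 64.4 and 88.7 at ZT21, the highest. These groups overlapped, and the amplitude of 0.22 ± 0.07 (SE, log2) in diabetic and 0.14 ± 0.07 in control retinas did not pass. Npas2 was called in diabetic retinas in 4 of the 58 fits without 1 library, namely without control ZT17 replicate 2, diabetic ZT5 replicate 4, diabetic ZT9 replicate 4 or diabetic ZT21 replicate 2 (adjusted p of 0.0272 to 0.0443, edgeR), and also with the replicate block (adjusted p = 0.0386, edgeR). Arntl2 (chromosome 6, 146796055 to 146833529, plus strand) had control group means between 91.4 and 102 and diabetic ones between 95.0 and 102 at 45 to 173 raw reads per library. These group means differed by less than the spread between libraries, with a pooled SD within groups of 0.26 on the log2 scale and a counting error of 9.98%.

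Over all time points, none of the 8 genes differed between diabetic and control retinas (edgeR, 1 group per genotype), where 2.99% of all genes were called. Arntl had the smallest p of the 8, with a diabetic minus control difference of 0.09 ± 0.03 (SE, log2), an unadjusted p of 0.00413 and an adjusted p of 0.0896, and its mean was higher in diabetic retinas at all 6 time points. Without diabetic ZT17 replicate 1, which had 1556 normalized counts, the lowest of all diabetic libraries, the adjusted p was 0.0435, and with the replicate block it was 0.0452 (edgeR, 2.66% of all genes called). The differences of Npas2 (0.08 ± 0.07), Nr1d1 (−0.07 ± 0.06) and Rorb (−0.09 ± 0.08) did not pass, and those of the other 4 genes lay between 0.00 and 0.01. In this fit 6 of the 8 genes had a difference above 0 and 1 an unadjusted p under 0.05 (15.5% of all genes). The median difference of the 8 genes was 0.01 beside 0.00 over all genes, and DESeq2 also called 0. The fit leaves time out, so the spread of Rorb in it includes its change over the day. In the fit of 12 groups, the mean of the differences of Rorb at the 6 time points was −0.10 ± 0.04 (SE, log2). Its unadjusted p was 0.0129 and its adjusted p 0.137 (edgeR). For Arntl this mean was 0.09 ± 0.03, with an unadjusted p of 0.00443 and an adjusted p of 0.0738 (edgeR).

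At single time points, 0 of the 48 tests of the 8 genes passed after adjustment with edgeR or DESeq2, without a replicate block or offsets for GC content and length. Of all genes 0.0105%, 0.0209%, 0.00523%, 0%, 0.167% and 0% were called from ZT1 to ZT21 (edgeR). Among the 48, 2 had an unadjusted p under 0.05, Rorb and Npas2 at ZT5, and this held for 5.5%, 6.15%, 4.49%, 4.46%, 8.82% and 4.67% of all genes from ZT1 to ZT21. Rorb at ZT5 had 9992 ± 815 normalized counts (SD, n = 6) in control and 7788 ± 898 (n = 5) in diabetic retinas, and 4 of the 5 diabetic libraries lay below all control libraries. The log2 difference was −0.36 ± 0.09 (SE), with an unadjusted p of 0.000247 and an adjusted p of 0.150 (edgeR), where 0.0209% of all genes were called. With the replicate number as a block the difference was −0.41 and passed (adjusted p = 0.0353, edgeR), where 0.0523% of all genes were called, and the 5 pairs of libraries that share a number at ZT5 had correlations of 0.118 to 0.349. Its adjusted p with offsets for GC content and length was 0.00457 (edgeR), with a difference of −0.34 on the log2 scale, where 0.0471% of all genes were called. With the pigment epithelium covariate the difference was −0.28 and the adjusted p 0.759 (edgeR). At the other times the difference of Rorb ran from −0.15 ± 0.10 at ZT1 to 0.03 ± 0.10 at ZT13. Npas2 at ZT5 had 62.9 ± 8.18 normalized counts (SD, n = 5) in diabetic and 48.7 ± 5.48 (n = 6) in control retinas, with a log2 difference of 0.36 ± 0.16 (SE), an unadjusted p of 0.0315 and an adjusted p of 0.741 (edgeR).

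The rhythms of the 8 genes were not shown to differ between genotypes, since none passed the test of the difference in the cosine (edgeR, adjusted p of 1.00, and likewise with DESeq2), which called 0% of all genes and had an unadjusted p under 0.05 for 3.44% of them. Rorb alone among them had an unadjusted p under 0.05, of 0.0243, with an adjusted p of 1.00 (edgeR). The diabetic minus control difference of its amplitude was 0.13 ± 0.06 (SE, log2), and the difference of its acrophase was −0.959 ± 0.619 h. With the correction for GC content and length they were 0.10 ± 0.04 and −0.992 ± 0.353 h, and the test of the difference had an unadjusted p of 0.0012 and an adjusted p of 0.571 (edgeR). The difference of Rorb between ZT17 and ZT5 had a further diabetic minus control difference of 0.35 ± 0.14 (SE, log2), with an unadjusted p of 0.0138 and an adjusted p of 1.00 (edgeR). The fitted acrophases of Npas2 lay 4.50 h apart, but no error can be put on this value, since its control amplitude was within 2 standard errors of 0.

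The spread of all 8 genes was smaller, by unlike amounts, after the trends of GC content and length were taken out of each library. Both trends were taken out together, so the part of each was not separated. The pooled SD within groups (log2) went from 0.18 to 0.07 for Nr1d2, from 0.13 to 0.06 for Clock, from 0.16 to 0.10 for Rorb, from 0.24 to 0.17 for Nr1d1 and from 0.12 to 0.09 for Rora. For Arntl, at 48.2% GC, it stayed at 0.11. With the trends as offsets in the edgeR fit, Rora was called rhythmic in control retinas too, as was Nr1d2 in both genotypes and Npas2 in diabetic retinas (adjusted p = 0.0286). That makes 3 and 4 of the 8 genes, where 16.3% and 20.1% of all genes were called. In corrected counts, Nr1d2 ran from 2804 ± 191 (SD, n = 5) at ZT1 to 3134 ± 102 (n = 5) at ZT13 in control and from 2782 ± 151 (n = 5) to 3262 ± 159 (n = 4) in diabetic retinas, with acrophases of ZT12.9 ± 0.962 h and ZT12.1 ± 0.672 h. Rorb at ZT17 then had 15386 ± 495 (SD, n = 5) in control and 14637 ± 925 (n = 4) in diabetic libraries, and its amplitudes were 0.37 ± 0.03 (SE) and 0.47 ± 0.03. Without the 4 libraries with the steepest trend, an alternative added after the data were seen, Nr1d2 was called in diabetic retinas (adjusted p = 0.0310) but not in control retinas (0.0558), and Rora in diabetic (adjusted p = 0.00328) but not in control retinas (0.0825, edgeR).

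**Figure D4:**
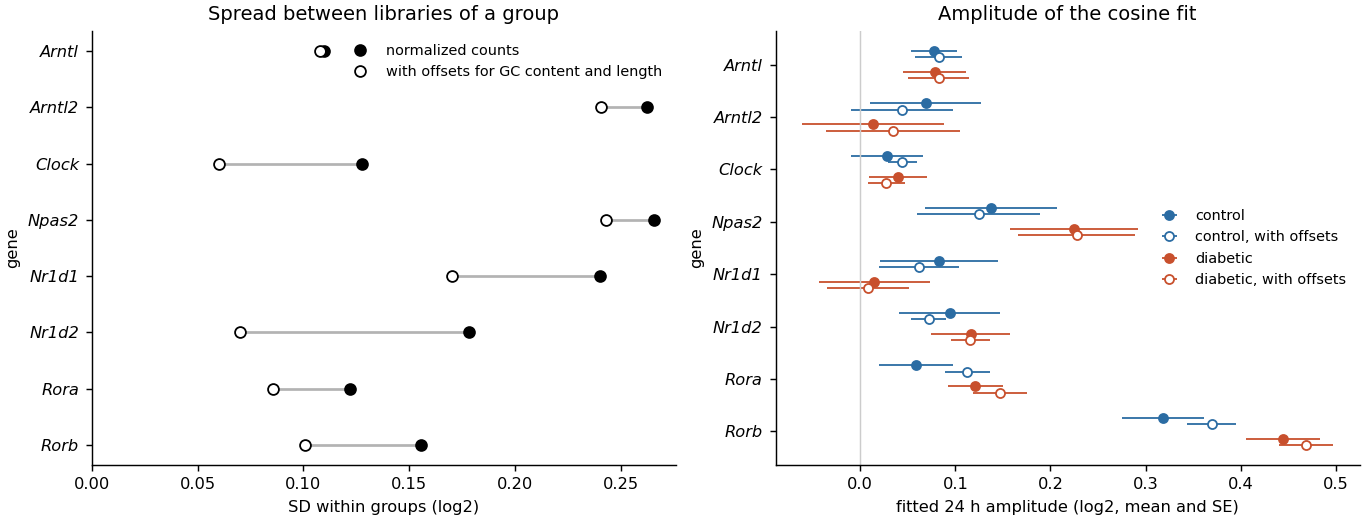
Left, the pooled SD of log2 normalized counts within groups for each of the 8 genes, before (filled) and after (open) correction for GC content and length. Right, the amplitude of the fitted 24 h cosine on the log2 scale with its SE in control and diabetic retinas, before (filled) and after (open) the correction, where Rorb lies highest at 0.32 to 0.47.

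The other genes of the pathway, grouped by role, moved unevenly, and their counts stand beside 12.2% of all genes called rhythmic in control and 14.3% in diabetic retinas. Of the 6 repressors of the clock (Per1, Per2, Per3, Cry1, Cry2 and Ciart), 1 was rhythmic in control and 2 in diabetic retinas. Ciart, which binds and represses the BMAL1 pair, had an amplitude of 0.57 ± 0.07 (SE, log2) in control and 0.59 ± 0.06 in diabetic retinas, peaking at ZT9.08 and ZT9.45, and Per2 passed in diabetic retinas (adjusted p = 0.0214, edgeR). Of the 6 output factors, 3 were rhythmic in both genotypes, namely Dbp and Tef, activators that bind D-boxes, and Nfil3, their repressor. Among 6 genes of the corepressor complex that REV-ERB recruits, Tbl1x was rhythmic in both genotypes (adjusted p of 1.08e-05 and 1.75e-09, edgeR) and Tbl1xr1 in diabetic retinas (adjusted p = 0.000213, edgeR). Ncoa1, a coactivator of nuclear receptors, was the 1 rhythmic gene of 8 coactivators in both genotypes (adjusted p of 0.000374 and 1.24e-05, edgeR). Of the 11 kinases and ligases of the clock, none was called in either genotype, and 2 in each had an unadjusted p under 0.05 (edgeR), as had 26.4% and 26.9% of all genes. Of the 10 other bHLH-PAS factors, 7 were expressed and 3 were rhythmic in control retinas (Ahr, Epas1 and Npas4) and 2 in diabetic retinas (Epas1 and Npas4). Of 6 photoreceptor factors, 3 were rhythmic in both genotypes, Nr2e3, Crx and Opn1sw, a cone opsin gene. In the comparison of genotypes over all time points, where 2.99% of all genes were called, Cry2 was the only gene of these lists that passed, higher in diabetic retinas by 0.11 ± 0.03 (SE, log2; adjusted p = 0.0211, edgeR). The median unadjusted p of the cosine test in control and diabetic retinas was 0.0272 and 0.0113 for the output factors, 0.0940 and 0.0930 for the repressors, 0.0756 and 0.0479 for the corepressor genes and 0.0542 and 0.0392 for the bHLH-PAS factors. It was 0.0681 and 0.157 for the photoreceptor factors, 0.222 and 0.555 for the coactivators and 0.438 and 0.349 for the kinases and ligases, beside 0.234 and 0.235 over all genes.

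Over the 12 groups, the members did not share 1 pattern. The Pearson r of mean log2 CPM over the 12 groups, which share libraries and depth, was 0.68 between Rora and Rorb, −0.62 between Arntl and Nr1d2 and 0.10 between Arntl and Clock. The genes with the profiles most like that of Rorb were Lbh and Rhobtb1 (r = 0.97 each, n = 12 groups). For Rora they were AC163032.1 (r = 0.96) and Lrp12 (r = 0.92), and for Arntl they were Dusp15 (r = 0.95) and Prex1 (r = 0.93). Clock had Opcml (r = 0.95) and Dnm1l (r = 0.93) as its most like profiles, Nr1d2 had Gclm (r = 0.96) and Hadhb (r = 0.93), and Nr1d1 had Neurod1 (r = 0.94) and Glyr1 (r = 0.90). Npas2 and Arntl2, with few reads, reached lower values, with r = 0.87 for Hip1r and 0.85 for Ncan, and r = 0.79 for Gm26782 and 0.78 for Pigb.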

How the data were processed

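Total RNA of individual retinas, depleted of ribosomal RNA, was sequenced in 58 libraries. The authors deposited raw read counts per gene symbol, made with STAR 2.7.4a alignments to GRCm38.p5 with Gencode M15 and HTSeq 0.11.1, neither normalized nor filtered. The strand setting of the counting is not given in the sources used here. The authors' own normalization was done with DESeq2 1.26.0.

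From these counts, genes with a median above 4 normalized counts (DESeq2 1.42.0 size factors) were tested with edgeR 4.0.16 in R 4.3.3, using TMM factors, the quasi-likelihood test and Benjamini-Hochberg adjustment over all 19120 genes, with calls at an adjusted p under 0.05. The fits were a 24 h cosine per genotype, 1 group per genotype and 12 groups. Columns were assigned to groups by the sample titles. RPKM used union exon lengths of the Gencode M21 annotation. Nothing in the labels links libraries to one another beyond their group and number, and without the replicate block they were treated as independent. The p-values measure the spread between these libraries, which includes their GC trends as well as differences between retinas.

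The 8 genes and all gene and marker lists were chosen with earlier results of these data known. All 8 genes were named, with up to 4 genes of each pathway list that had the smallest adjusted p under 0.05 of the cosine test, and the 2 genes with the most similar profile among those with at least 100 normalized counts. Alternatives were DESeq2 as the tool or for size factors, other filters, a replicate block, GC and length offsets (natural splines fitted on 13969 genes), each library left out and the rank test. Fits without the libraries with over 100 CPM of lens markers, without the libraries with a GC trend over 0.5, and with pigment epithelium markers as a covariate were chosen after seeing the data. The scripts were tested on simulated data. At these depths counting error is about 0.916% for Rorb and 12.9% for Npas2, and covers counting only. Some genes are not reported here.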

Additional observations from a re-analysis of the deposited data

Results flagged for a closer look

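Of 96 groups tested (8 genes in 12 groups of 4 to 6 libraries), 4 held a library that stood apart from the others by Dixon's test at the 95% level, which chance alone does in about 1 group in 20. Nr1d1 at ZT5 in diabetic retinas had 4314 normalized counts in replicate 4, where the other libraries had 2903 to 3244. Nr1d2 at ZT9 in diabetic retinas had 2887 in replicate 4, and the others had 3306 to 3419. For Rora, control replicate 4 at ZT9 had 5149 where the others had 6580 to 6924, and diabetic replicate 3 at ZT17 had 6315 where the others had 7589 to 7826.5. The GC trend of these libraries was 0.33, 0.42, 0.68 and 0.83 on the log2 scale, all toward more reads in GC-rich genes, and its part in these values was not tested.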

How the results depend on the processing

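Besides leaving out libraries in turn, 60 of 78 counts of called genes stayed within 1.5 times their first value over the alternatives tried. Of the 8 genes, the number called rhythmic in control retinas was 2 with the replicate block (Arntl and Rorb) and 3 with offsets for GC content and length or with the rank test, against 1. In diabetic retinas it was 4 with the replicate block, 4 with the offsets, 1 without a filter and 1 with the pigment epithelium covariate, against 2. With the replicate block, Arntl differed between genotypes over all time points (1 gene, adjusted p = 0.0452, edgeR) and Rorb at ZT5 (1 gene, adjusted p = 0.0353, edgeR), and the offsets also called 1 gene at a time point, Rorb at ZT5. Nothing in the labels says that replicate numbers pair libraries. The 26 pairs of the same number at a time point had a median correlation of 0.305 (−0.513 to 0.839, 21 over 0.1), and 28 of 58 libraries correlated best with their own number. The 114 pairs of other numbers had a median of −0.094, which is no separate baseline, since values were taken from the mean of each group. The block fits 1 effect per number over all groups, which pairs within a time point do not examine. For any difference over time, 2 genes (Rora and Rorb) passed in control retinas with the offsets or without the 4 libraries with the steepest GC trend. In diabetic retinas 2 passed with filterByExpr, DESeq2, the replicate block or without those 4 libraries, and 3 with the offsets. Between opposite time points, 10 tests passed with the offsets, against 5. The cause of these shifts was not tested. Over the 58 fits without 1 library, the counts ran from 1 to 1 and from 1 to 3 for rhythm in control and diabetic retinas, 0 to 0 for differential rhythm, 0 to 1 for genotype over all time points, 0 to 0 at a time point, 1 to 1 and 1 to 2 for time, and 4 to 6 for opposite points. The difference of Rorb between ZT13 and ZT1 in diabetic retinas was called in 34 of these fits (adjusted p of 0.0299 to 0.162, edgeR) and had an adjusted p of 0.0555 without the filter. Differences between genotypes near 0 changed sign without single libraries, with log2 ranges of −0.0168 to 0.0264 for Arntl2, −0.00758 to 0.0161 for Clock, −0.00556 to 0.0248 for Nr1d2 and −0.00275 to 0.0169 for Rora. Without the 4 libraries with the steepest GC trend they were −0.0024, −0.0204, −0.0149 and −0.0142. For Npas2 and Arntl2 counting error is 12.9% and 9.98%, and their SD within groups is 0.27 and 0.26 (log2), so depth and spread between retinas were not separated.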
